A study of Mus musculus with 6 samples.

Results

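The genes described here encode 46 enzymes and partner proteins of xenobiotic and oxidant metabolism in the mouse lung. They were chosen by gene symbol, with earlier results of these data known. All 46 were found among the 24061 gene rows of the deposited count table and passed the filter on low counts. Messenger RNA was measured by bulk RNA sequencing of whole lung in 2 groups of 3 libraries. The control group carried the genotype CCSP/-, the other group carried CCSP/TGFalpha, and both had been given doxycycline for 3 weeks, so the CCSP element and the drug were shared by all libraries. The labels do not describe the construct that carries TGFalpha further. CCSP denotes club cell secretory protein, a product of airway club cells, and TGFalpha is a ligand of the epidermal growth factor receptor. The labels do not say whether replicates were separate animals, so p-values measure the spread between these samples, which may be technical. The mouse Tgfa row did not separate the groups (25.8 ± 2.94 CPM in controls and 27.5 ± 2.09 CPM in TGFalpha lungs, mean ± SD, n = 3 each; edgeR adjusted p = 0.739), and it can count transgene reads only where the sequences match. Levels are given as CPM, the count of a gene over its library total scaled to a fixed size, with totals adjusted by the TMM method. Libraries are named by group and replicate number, as control 1 to 3 and TGFalpha 1 to 3.

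Foreign compounds are cleared in steps. Cytochrome P450 enzymes and flavin monooxygenases add oxygen, aldehyde dehydrogenases, carbonyl reductases and hydrolases process the reactive groups, and glutathione transferases and sulfotransferases attach a soluble group. The lung meets inhaled chemicals directly, and its club cells and endothelium are known sites of P450 expression. The Ah receptor (gene Ahr) senses aromatic compounds and drives Cyp1a1 and Cyp1b1, while the transcription factor Nrf2 (gene Nfe2l2) drives glutathione synthesis and other oxidant defence genes.

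Library totals ran from 21479006 to 24914322 counts. Control 1 and TGFalpha 1 stood apart: 6 markers of oesophagus and squamous epithelium summed to 1009 and 593 CPM there, against 3.16 to 5.84 CPM in the other 4 libraries, and 8 skeletal muscle markers summed to 1365 and 2315 CPM against 51.9 to 69.6 CPM. Control 3 was low in 5 mesothelial markers, which summed to 23.2 CPM there, to 215 and 219 CPM in the other controls and to 294 to 403 CPM in TGFalpha lungs. Lung tissue markers were abundant in every library, with 10 alveolar type 2 markers summing to between 14506 and 19123 CPM. The 10 hepatocyte markers summed to between 4.77 and 44.7 CPM, of which the most, 44.7 CPM, was in TGFalpha 3.

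The elements bound by the Ah receptor and Nrf2 are short, and their letters occur just before the start of some of the genes. The 250 bases before each RefSeq start (GRCm38.p6, the build of mm10) were searched on both strands for the core xenobiotic response element GCGTG and for the antioxidant response element TGACNNNGC. Sequence farther from the start was not searched. Of the 46 genes, 36 were matched to a promoter. GCGTG was found for 15 of the 36 (30.9% of all 27025 genes with a promoter hold it) and TGACNNNGC for 5 (11.5% of all genes). A match is a description of letters and not a bound site, and the 2 motifs overlapped each other only in Gstm5 and GCGTG overlapped itself only in Selenbp1. The 6 stretches printed here touch no annotated exon and have the motif in capitals. They are those of the Ah receptor targets Cyp1a1 and Cyp1b1, which changed in opposite directions, of the 2 glutathione transferases that fell, and of 2 Nrf2 targets that did not pass the test. Each is written 5′ to 3′ on the gene's strand.
Cyp1a1 (chr9:57697519-57697603, plus strand, GCGTG starting 54 bases before the start): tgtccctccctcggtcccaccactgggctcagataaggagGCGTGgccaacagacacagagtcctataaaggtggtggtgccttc
Cyp1b1 (chr17:79715093-79715177, minus strand, reverse complement of GCGTG starting 76 bases before the start): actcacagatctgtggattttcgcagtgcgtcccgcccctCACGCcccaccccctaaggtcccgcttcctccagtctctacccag
Gstm1 (chr3:108018005-108018089, minus strand, GCGTG starting 76 bases before the upstream start): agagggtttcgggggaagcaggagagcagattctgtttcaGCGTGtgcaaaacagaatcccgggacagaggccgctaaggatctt
Gsta3 (chr1:21240424-21240512, plus strand, TGACNNNGC starting 121 bases before the start): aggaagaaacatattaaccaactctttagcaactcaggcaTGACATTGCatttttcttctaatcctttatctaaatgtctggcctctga
Gclm (chr3:122245383-122245471, plus strand, reverse complement of TGACNNNGC starting 134 bases before the start): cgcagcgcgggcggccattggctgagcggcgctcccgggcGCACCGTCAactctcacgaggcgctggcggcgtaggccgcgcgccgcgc
Txnrd1 (chr10:82859074-82859162, plus strand, reverse complement of TGACNNNGC starting 92 bases before 1 of its 3 listed starts): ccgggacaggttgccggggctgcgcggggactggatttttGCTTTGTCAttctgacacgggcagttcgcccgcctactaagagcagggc

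In TGFalpha lungs 4 of the 8 P450 genes and 2 of the 3 flavin monooxygenase genes fell, and 1 P450 gene rose. Of the cytosolic glutathione transferases 2 of 9 fell, and of the aldehyde dehydrogenases 1 of 5. The other 36 of the 46 genes did not pass the test, nor did 14749 of all 16089 tested genes. Of the 46 genes, 9 fell (19.6%), where 3.29% of all 16089 tested genes fell, and 1 rose (2.17%), where 5.03% of all tested genes rose (8.33% in either direction). Because the 46 genes were chosen with earlier results of these data known, these shares do not test the set. Of 56 tested drug-metabolizing enzymes outside the set, 1 fell and 2 rose. The 9 that fell were the P450 genes Cyp1a1, Cyp2s1, Cyp4b1 and Cyp2d22, the flavin monooxygenase genes Fmo1 and Fmo5, the glutathione transferase genes Gsta3 and Gstm1, and the aldehyde dehydrogenase gene Aldh3b1. The gene that rose was Cyp1b1. Calls were made at a Benjamini-Hochberg adjusted p under 0.05 in edgeR's quasi-likelihood test over all genes. Negative log2 fold changes were found for 31 of the 46, and the median was -0.25, against 0.01 over all tested genes. The groups' CPM ranges were apart for 15 genes downward and 3 upward, where 15.5% and 17.7% of all tested genes were apart in those directions (33.2% in either). In a bulk sample, fewer cells of a type and less RNA per cell cannot be told apart.

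**Figure D1:**
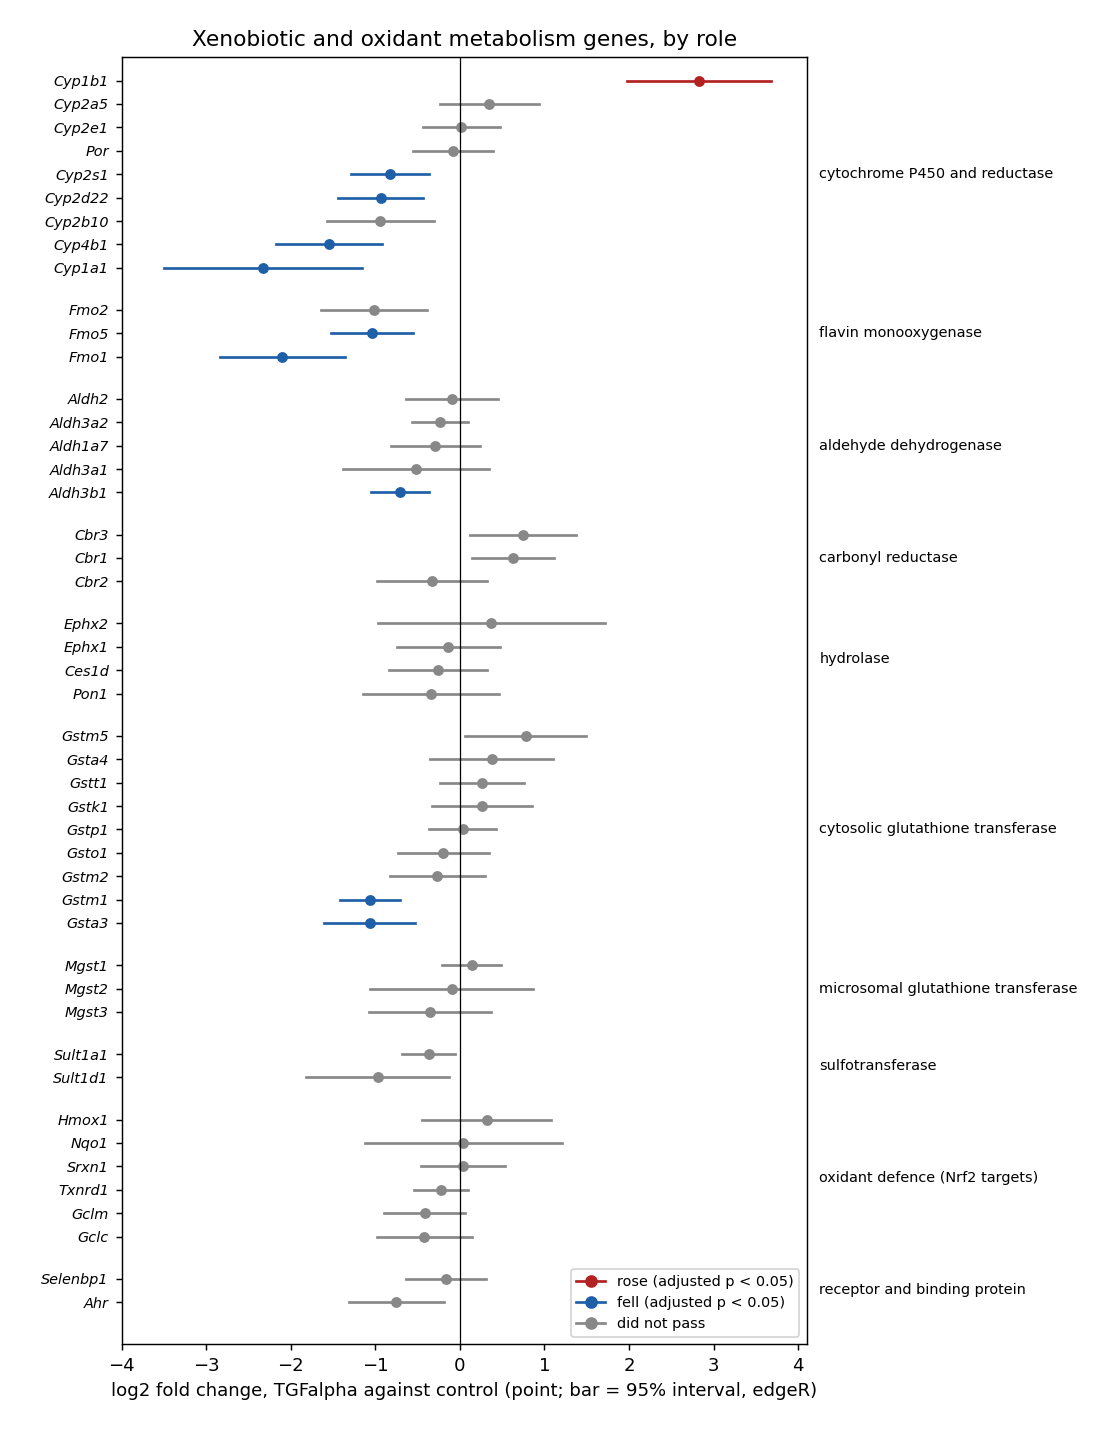
Log2 fold change of each of the 46 genes, TGFalpha against control (x axis), with points for the edgeR estimate and bars for its 95% interval, grouped by role. Cyp1b1 lies alone on the right at 2.83, and the 9 genes that fell lie between -2.33 and -0.71.

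Among the P450 genes, Cyp1b1 and Cyp1a1 went in opposite directions. Cyp1b1 (gene ID 13078; GRCm38, chromosome 17, 79706940 to 79715061) oxidises aromatic hydrocarbons and oestradiol. It stood at 9.43, 5.91 and 12.2 CPM in control 1 to 3 and at 59.4, 96.1 and 40.1 CPM in TGFalpha 1 to 3. Every TGFalpha library was above every control library, and the log2 fold change was 2.83 ± 0.37 (SE; edgeR adjusted p = 0.00591). The call held without any 1 of the 6 libraries, with log2 fold changes of 2.44 to 3.08 and adjusted p between 0.00563 and 0.0358.

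Cyp1a1 (gene ID 13076; chromosome 9, 57687928 to 57703824), the classical target of the Ah receptor, was a low transcript. Its levels were 4.66, 2.61 and 4.38 CPM in controls and 0.68, 0.37 and 1.26 CPM in TGFalpha lungs, where they rested on 16, 9 and 30 counts. The groups did not overlap, and the log2 fold change was -2.33 ± 0.51 (edgeR adjusted p = 0.0337). Leaving out a single library kept the call only when it was TGFalpha 3; with each of the others removed the adjusted p was between 0.0692 and 0.142. The ratio of Cyp1b1 to Cyp1a1 CPM, examined after both values were seen, was 2.03, 2.26 and 2.78 in controls and 87.3, 260 and 31.9 in TGFalpha lungs. Since each gene was already apart between the groups, the ratio had to be apart too. An exact permutation test of the log2 ratio (2-sided p = 0.1) therefore adds no support.

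The receptor gene Ahr (gene ID 11622; chromosome 12, 35497979 to 35534989) stood at 103, 117 and 179 CPM in controls and at 61.6, 81.6 and 93.4 CPM in TGFalpha lungs. Its ranges did not overlap, but it did not pass the test (log2 fold change -0.75 ± 0.24, 95% interval -1.31 to -0.19, edgeR adjusted p = 0.0948). It passed with DESeq2 (adjusted p = 0.0207). The receptor's partner Arnt had a log2 fold change of -0.05 ± 0.15 (edgeR adjusted p = 0.863), and its repressor Ahrr was below 1 CPM in every library. Of 12 tested genes of the Ah receptor and xenosensor pathway outside the set, edgeR called none, where it called 8.33% of all tested genes. No call among 12 genes therefore says little about them, and their median log2 fold change was -0.10. The 12 include Hif1a, Ptges3 and Nfe2l2, and Nfe2l2 is also counted among the Nrf2 pathway genes below.

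Fibroblast and endothelial markers differed between the groups too, and other marker lists moved in the same directions. Of 10 fibroblast markers, 5 rose, and their sum went from between 2222 and 2879 CPM in controls to between 6311 and 9269 CPM in TGFalpha lungs, in the direction of Cyp1b1. The 5 were the matrix genes Col1a1, Col1a2, Col3a1, Dcn and Lum, of which Col3a1 and Col1a2 made up most of the TGFalpha sum. The other 5 did not pass in edgeR, and Tcf21, Npnt, Inmt and Pdgfrb had log2 fold changes of -0.61, -0.42, -0.31 and -0.04. Of 10 endothelial markers, 5 fell, and their sum went from between 3914 and 6999 CPM to between 1799 and 3314 CPM, in the direction of Cyp1a1. The 8 smooth muscle markers, of which 2 rose and 1 fell, summed to 226 to 320 CPM in controls and 346 to 794 CPM in TGFalpha lungs. Mesothelial sums were also higher in TGFalpha lungs, and ciliated and alveolar type 1 sums were lower, as given in other paragraphs. The part of these cell types in the changes of Cyp1b1 and Cyp1a1 was not tested.

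The other P450 genes that fell were more abundant. Cyp4b1 (gene ID 13120; chromosome 4, 115624698 to 115647721), which oxidises fatty acids and activates some lung toxicants, stood at 194, 262 and 367 CPM in controls and at 89, 72.7 and 120 CPM in TGFalpha lungs. All TGFalpha libraries lay below all controls, with a log2 fold change of -1.55 ± 0.27 (edgeR adjusted p = 0.0166). Cyp2d22 went from 45.4, 71.2 and 73.1 CPM to 31.7, 28 and 39.4 CPM (log2 fold change -0.94 ± 0.22, edgeR adjusted p = 0.0407). Cyp2s1, a P450 found mainly outside the liver, went from 112, 110 and 87.5 CPM to 53.2, 47.5 and 73.7 CPM (log2 fold change -0.83 ± 0.20, edgeR adjusted p = 0.0437). For both genes the groups were apart, with TGFalpha 3 nearest to the controls. Cyp4b1 and Cyp2d22 no longer passed once control 2, control 3, TGFalpha 1 or TGFalpha 2 was removed (adjusted p of 0.0561 to 0.0708 and of 0.102 to 0.162). Cyp2s1 kept passing only on removal of TGFalpha 3 (0.0889 to 0.142 for the others).

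Cyp2b10 (gene ID 13088; chromosome 7, 25897658 to 25926624), a target of the xenosensor CAR, had the highest level per length of the P450 genes in controls, at 157 ± 29.8 CPM per kb of exon. Its levels were 259, 372 and 364 CPM in controls and 148, 123 and 247 CPM in TGFalpha lungs. The ranges were narrowly apart, between control 1 and TGFalpha 3, and the gene missed the threshold (log2 fold change -0.94 ± 0.28, edgeR adjusted p = 0.0735). On removal of TGFalpha 3 its adjusted p was 0.0233, and with DESeq2 0.0048.

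The other 3 genes of this group gave overlapping ranges. Cyp2a5, which metabolises coumarin and nicotine, had a mean of 27.4 ± 4.73 CPM in controls and 34.9 ± 11.1 CPM in TGFalpha lungs. Of its transcript's 50-base words, 31% also occur in its relative Cyp2a4, so its count is uncertain. Cyp2e1, the ethanol-inducible P450, stood at 23.9 ± 3.61 and 24.2 ± 4.94 CPM, with a 95% interval of the log2 fold change from -0.43 to 0.47. Por, the reductase that supplies electrons to P450 enzymes of the endoplasmic reticulum, had 199 ± 39.4 and 188 ± 38.2 CPM, with an interval from -0.56 to 0.39. Per length, the 9 genes together went from 392 ± 72.4 to 230 ± 51.3 CPM per kb, 58.5% of the control mean, and the lowest control library (311) stayed above the highest TGFalpha library (286). Cyp2b10 and Cyp4b1 carried nearly all of this net fall: the other 7 summed to 114 ± 11.9 and 106 ± 10.2 CPM per kb, with overlapping ranges. Changes within the 7 partly cancelled: Cyp1b1 went from 1.57 to 11.2 CPM per kb, Cyp2s1 from 20.9 to 11.8 and Cyp2d22 from 16.2 to 8.45. Por, the largest of the 7, had 49.5 and 46.7 CPM per kb.

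All 3 flavin monooxygenase genes lay lower in every TGFalpha library than in any control library. These enzymes oxidise nitrogen- and sulfur-containing compounds. Fmo1 (gene ID 14261; chromosome 1, 162829561 to 162866610) stood at 234, 397 and 459 CPM in controls and at 66.3, 66.9 and 121 CPM in TGFalpha lungs. Its log2 fold change of -2.10 ± 0.32 (edgeR adjusted p = 0.00986) was the second largest fall of the 46 genes. Removing control 2 or control 3 ended the call (adjusted p of 0.054 and 0.0549). Fmo5 went from 39.6, 39.7 and 57.9 CPM to 18.1, 22.4 and 26.2 CPM (log2 fold change -1.04 ± 0.21, edgeR adjusted p = 0.0277), and it no longer passed once control 2, control 3, TGFalpha 1 or TGFalpha 2 was removed (0.0687 to 0.108).

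Fmo2, the main flavin monooxygenase of lung, was the most abundant of the 3 per length. It stood at 432, 587 and 790 CPM in controls and at 233, 272 and 393 CPM in TGFalpha lungs. The ranges were apart, with TGFalpha 3 close under control 1, and the gene did not pass (log2 fold change -1.01 ± 0.27, edgeR adjusted p = 0.0586). Fmo2 did pass on removal of control 1 (adjusted p = 0.0363) or TGFalpha 3 (0.0474), and with DESeq2 (0.00163), limma-voom (0.0498) and the robust edgeR fit (0.0479). Fmo1 and Fmo2 are neighbouring protein-coding genes on chromosome 1. The 3 genes together went from 173 ± 51.4 to 70.7 ± 20.4 CPM per kb, 40.8% of the control mean.

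**Figure D2:**
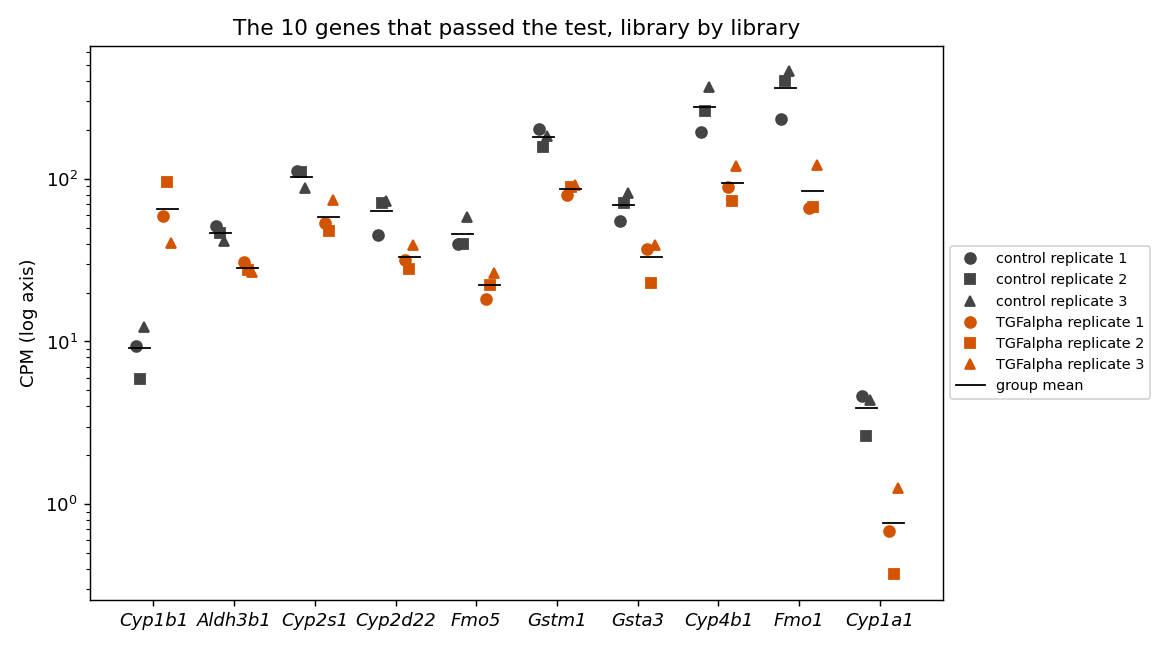
CPM of the 10 genes that passed the test in each library (log axis), with control libraries in grey, TGFalpha libraries in orange, symbols for the replicate and lines for group means. The groups are apart for every gene shown, and control 1 is the lowest control for Fmo1 (234 CPM) and Cyp4b1 (194 CPM).

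Ciliated cell markers fell as well, and those of club and alveolar type 1 cells fell in part. Of 12 ciliated cell markers, 6 fell and all 12 had negative log2 fold changes, with sums of 463 to 510 CPM in controls and 229 to 277 CPM in TGFalpha lungs. Of 14 club cell markers, 4 fell and 1, Bpifa1, rose (log2 fold change 3.11 ± 0.69, edgeR adjusted p = 0.0344). The sum of all 14 went from between 9503 and 11352 CPM in controls to between 5446 and 7345 CPM in TGFalpha lungs. Without Scgb1a1, the gene of CCSP itself, the other 13 summed to 4639 to 6911 CPM in controls and 3766 to 5091 CPM in TGFalpha lungs, which overlap. The club cell P450 gene Cyp2f2, outside the set, had a log2 fold change of -0.92 ± 0.26 (edgeR adjusted p = 0.0643). Of 10 alveolar type 1 markers, 4 fell, with sums of 4324 to 6445 CPM in controls and 2300 to 3820 CPM in TGFalpha lungs. Aqp5 was the only 1 of the 10 with a positive log2 fold change (0.81 ± 0.22, edgeR adjusted p = 0.0616). No alveolar type 2 marker of 10 passed in edgeR, with sums of 14506 to 19123 and 16860 to 18731 CPM. The part of ciliated, club and alveolar type 1 cells in the falls of the P450 and flavin monooxygenase genes was not tested.

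Of the 9 cytosolic glutathione transferases, which join glutathione to electrophiles, 2 fell and 7 did not pass. Gstm1 (gene ID 14862; chromosome 3, 108012250 to 108017973), of the mu class, stood at 203, 156 and 183 CPM in controls and at 79.3, 89.1 and 91.3 CPM in TGFalpha lungs. The TGFalpha libraries were close together and all below the controls, with a log2 fold change of -1.06 ± 0.16 (edgeR adjusted p = 0.00833). This was the smallest adjusted p among the falls of the set, and of the 6 single removals only that of control 3 ended the call (adjusted p = 0.0508). Gsta3, of the alpha class, went from 55.1, 71.1 and 81.4 CPM to 37.1, 23 and 39 CPM (log2 fold change -1.07 ± 0.24, edgeR adjusted p = 0.0344). Removal of control 2, control 3, TGFalpha 1 or TGFalpha 2 ended the call (0.067 to 0.146).

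Gstm2 and Gstm5 lie in the same gene cluster as Gstm1 on chromosome 3 and did not pass. Gstm2 had 72 ± 14.9 CPM in controls and 59.9 ± 16.8 CPM in TGFalpha lungs (log2 fold change -0.26 ± 0.25, edgeR adjusted p = 0.521). Gstm5 stood at 7.03, 13.9 and 9.31 CPM in controls and at 21.1, 11.5 and 19.1 CPM in TGFalpha lungs, where replicate 2 fell inside the control range (log2 fold change 0.78 ± 0.31, edgeR adjusted p = 0.154). The ratio of Gstm5 to Gstm1 CPM, examined after the values were seen, was 0.0346 to 0.0892 in controls and 0.129 to 0.266 in TGFalpha lungs. Mu class genes share sequence, and 23.1% of the 50-base words of Gstm1 also occur in other genes' transcripts, 17.3% in Gstm2-ps1. The mu class gene Gstm3, outside the set, fell too (log2 fold change -1.36 ± 0.23, edgeR adjusted p = 0.0151).

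The alpha class gene Gsta4, whose product clears the lipid peroxidation aldehyde 4-hydroxynonenal, had 44.8 ± 12.9 CPM in controls and 58.2 ± 21.9 CPM in TGFalpha lungs. Gstp1, of the pi class, had 46.6 ± 5.73 and 47.7 ± 8.25 CPM, with a 95% interval of the log2 fold change from -0.36 to 0.43, but 62.3% of its transcript's 50-base words also occur in Gstp2, so these values cover both genes in part. Gsto1, Gstt1 and Gstk1 had log2 fold changes of -0.20, 0.26 and 0.26. The membrane-bound transferase gene Mgst1, the most abundant of the 3 per length, was at 323, 249 and 279 CPM in controls and 316, 327 and 293 CPM in TGFalpha lungs, with overlapping ranges and an interval from -0.21 to 0.49. Mgst3 was at 15.3, 11.1 and 14.8 CPM in controls and at 16.4, 8.06 and 7.79 CPM in TGFalpha lungs, where replicate 1 was above all controls and the others below. Mgst2 was near 5 CPM in both groups (4.96 ± 1.36 and 4.64 ± 2.48).

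Aldehyde dehydrogenases oxidise reactive aldehydes, and 1 of 5 fell. Aldh3b1 (gene ID 67689; chromosome 19, 3913491 to 3930898), which acts on lipid-derived aldehydes, stood at 51.1, 46.2 and 41.5 CPM in controls and at 30.8, 27.4 and 26.8 CPM in TGFalpha lungs. The groups were apart with little spread within either, and the log2 fold change was -0.71 ± 0.15 (edgeR adjusted p = 0.0288). It no longer passed whichever library was removed (adjusted p between 0.0631 and 0.0971). Aldh2, the mitochondrial enzyme of acetaldehyde oxidation, was at 234, 368 and 306 CPM in controls and 304, 205 and 341 CPM in TGFalpha lungs, with wide overlap. Aldh3a2 had 112 ± 6.71 and 95.7 ± 10.6 CPM, and Aldh1a7 had 127 ± 5.69 and 104 ± 31.6 CPM.

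Aldh3a1, the aldehyde dehydrogenase of stratified epithelia such as cornea and upper digestive tract, varied with 1 control library. It stood at 34.9, 14.5 and 14.4 CPM in controls and at 13.5, 11.2 and 19.9 CPM in TGFalpha lungs. Its log2 fold change was -0.52 ± 0.38 with all libraries (edgeR adjusted p = 0.411) and 0.03 without control 1, the library with the highest sum of oesophagus markers. TGFalpha 1, which held 593 CPM of those markers, was not high in Aldh3a1. The part of such tissue in the Aldh3a1 level was not tested.

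Carbonyl reductases gave the most abundant transcript of the set and 2 small genes with higher values. Cbr2 (gene ID 12409; chromosome 11, 120729485 to 120732025), a lung carbonyl reductase, had 889 ± 77.5 CPM per kb of exon in controls, the highest level per length of the set. It stood at 1064, 1257 and 1220 CPM in controls and at 1096, 546 and 1174 CPM in TGFalpha lungs, so only TGFalpha 2 lay below the control range (log2 fold change -0.33 ± 0.28, edgeR adjusted p = 0.484). Cbr1 went from 12.4, 10.5 and 14.1 CPM to 23.1, 19.2 and 14.9 CPM, and Cbr3 from 5.94, 3.85 and 6.26 CPM to 10.4, 9.25 and 7.25 CPM. Both had ranges apart but did not pass (log2 fold changes 0.63 ± 0.21 and 0.74 ± 0.28, edgeR adjusted p = 0.104 and 0.128). Cbr1 and Cbr3 are neighbouring protein-coding genes on chromosome 16.

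No hydrolase or sulfotransferase gene passed in edgeR, where 8.33% of all tested genes did. The carboxylesterase gene Ces1d, second to Cbr2 per length in controls at 181 ± 40.5 CPM per kb, stood at 335, 527 and 421 CPM in controls and at 348, 256 and 465 CPM in TGFalpha lungs, with overlap (log2 fold change -0.26 ± 0.25, edgeR adjusted p = 0.538). The epoxide hydrolase genes Ephx1 and Ephx2 had log2 fold changes of -0.14 ± 0.27 and 0.37 ± 0.59, and the paraoxonase gene Pon1 -0.34 ± 0.35. Sult1a1, which sulfates phenols, stood at 36.6, 42.8 and 42.7 CPM in controls and at 32.1, 31 and 31.3 CPM in TGFalpha lungs. Its TGFalpha libraries were nearly level and below all controls, yet the adjusted p was 0.131 (log2 fold change -0.37 ± 0.14). Sult1d1 went from 10.1 ± 3.96 to 5.14 ± 1.63 CPM with an adjusted p of 0.136. Selenbp1, a selenium-binding protein with methanethiol oxidase activity, had 376 ± 43.8 and 336 ± 78.2 CPM. It stood at 337, 424 and 368 CPM in controls and at 363, 248 and 398 CPM in TGFalpha lungs, with overlap. Of its transcript's 50-base words, 52.3% also occur in Selenbp2.

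The 6 oxidant defence genes of the set, all Nrf2 targets, gave no call in either direction in edgeR, DESeq2 or limma-voom. None had an unadjusted edgeR p under 0.05. In edgeR 8.33% of all tested genes were called, so no call among 6 genes says little about them. Gstm1 and Gsta3, which fell, are also known as Nrf2 targets, but the other genes outside these 6 were not sorted by Nrf2 dependence. Gstm1 and Gsta3 therefore show no direction for Nrf2 targets as a whole. Gclc (gene ID 14629; chromosome 9, 77754535 to 77794489), the catalytic subunit of glutathione synthesis, stood at 518, 317 and 342 CPM in controls and at 238, 372 and 268 CPM in TGFalpha lungs (log2 fold change -0.42 ± 0.24, 95% interval -0.98 to 0.14). Gclm, its modifier subunit, stood at 40.5, 27.2 and 43.1 CPM in controls and at 23.7, 31.3 and 28.1 CPM in TGFalpha lungs (log2 fold change -0.42 ± 0.21, interval -0.89 to 0.06). In both genes the groups overlapped. Hmox1, which degrades haem, had 31.4 ± 10.9 and 39.2 ± 15.6 CPM.

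The thioredoxin reductase gene Txnrd1 had 152 ± 15.1 CPM in controls and 130 ± 3.44 CPM in TGFalpha lungs, with ranges apart but a log2 fold change of only -0.22 ± 0.14 (edgeR adjusted p = 0.335). Srxn1, which repairs peroxiredoxins, had an interval from -0.46 to 0.53. Nqo1, the quinone reductase, was below 7 CPM in every library and its interval was wide, from -1.12 upward past 1 on the log2 scale, so it includes a 2-fold change in either direction. The Nrf2 gene Nfe2l2 had a log2 fold change of -0.02 ± 0.18, its inhibitor gene Keap1 0.24 ± 0.13 and the repressor gene Bach1 0.20 ± 0.20, and none of these 3 passed in edgeR.

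Of the 6 oxidant defence genes, Gclc, Hmox1 and Txnrd1 were highest in control 1 among controls and in TGFalpha 2 among TGFalpha lungs. For Txnrd1 the TGFalpha libraries were nearly level (131, 133 and 126 CPM in TGFalpha 1 to 3). Gclm and Srxn1 were highest in TGFalpha 2 of their group but not in control 1, and Nqo1 in control 1 but not in TGFalpha 2. Hmox1 stood at 43.6, 27.7 and 22.9 CPM in controls and at 38.8, 54.9 and 23.7 CPM in TGFalpha lungs. The same libraries held the most Chil3, a secreted protein of alveolar macrophages, at 16423 and 14457 CPM against 1741 to 6431 CPM in the other 4. Chil3 made up most of the sum of 10 macrophage markers, and the other 9 summed to 1630 and 1362 CPM in these libraries and to 670 to 948 CPM in the others. No macrophage marker of 10 passed between the groups in edgeR. The part of macrophages in the Gclc, Hmox1 and Txnrd1 levels was not tested.

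**Figure D3:**
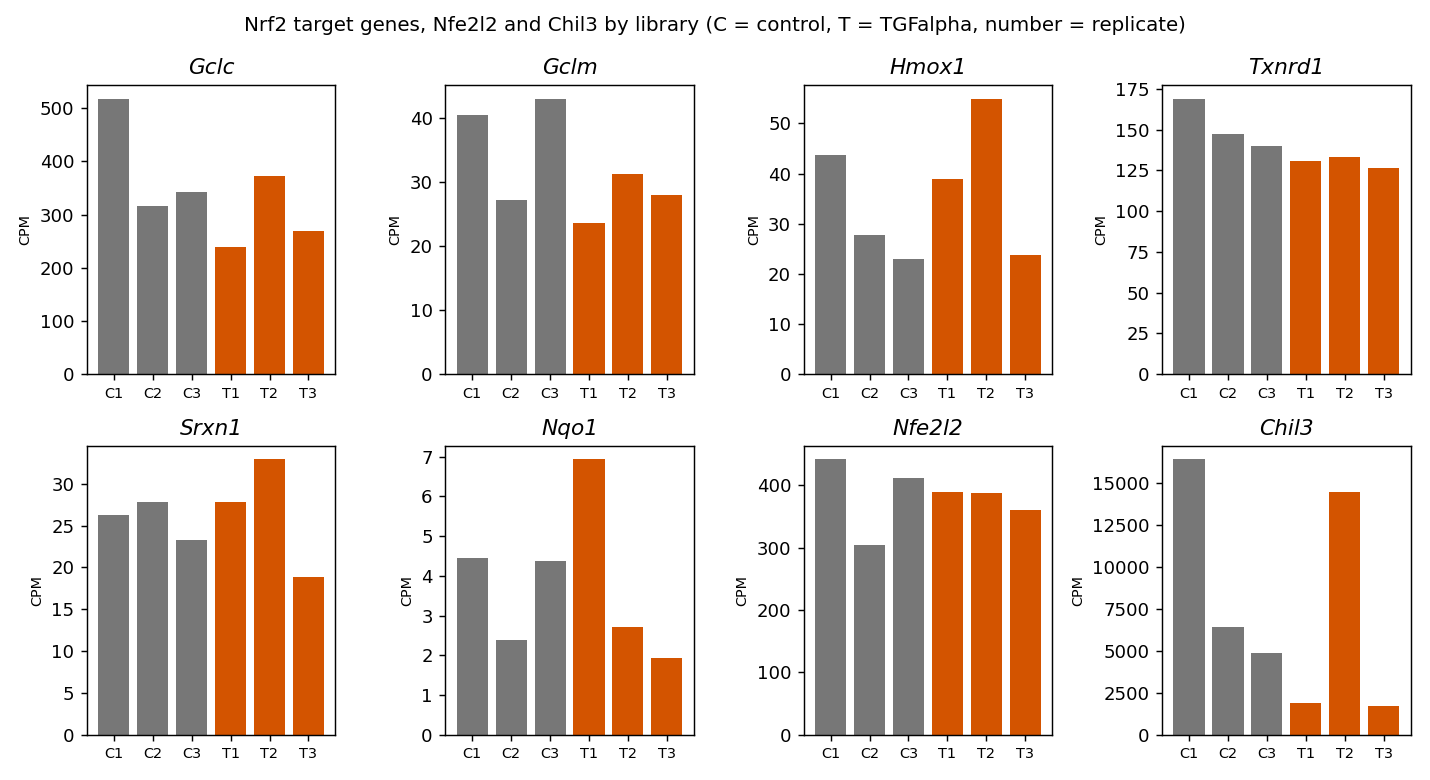
CPM of 6 Nrf2 target genes, of Nfe2l2 and of the macrophage gene Chil3 in each library (bars from 0; grey for control, orange for TGFalpha). Gclc and Hmox1 are highest in control 1 (518 and 43.6 CPM) and TGFalpha 2 (372 and 54.9 CPM) of their groups, as Chil3 is, and none of the 6 passed between groups.

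TGFalpha 2 held the lowest values for much of the set. It was the lowest of the 6 libraries for 20 of the 46 genes (43.5%), where it was the lowest for 13.7% of all tested genes. The 20 include genes that fell, such as Cyp4b1 and Gsta3, and abundant genes that did not pass, such as Cbr2, Ces1d, Aldh1a7, Aldh2, Ephx1, Por, Pon1 and Selenbp1. For Cbr2, Aldh1a7 and Ephx1 the other 2 TGFalpha libraries lay within the control range or close to it. TGFalpha 3 was highest of all 6 libraries for none of the 46 genes (10.9% of all tested genes) and highest of the TGFalpha libraries for 21. Without TGFalpha 2 the median log2 fold change of the set was -0.09, against -0.25 with all libraries. The alveolar type 1 marker sum had TGFalpha 2 lowest too (2911, 2300 and 3820 CPM in TGFalpha 1 to 3), as did Cyp2f2 (647, 407 and 760 CPM), while the sum of 14 club cell markers did not (5446, 7345 and 6758 CPM). The part of these cell types in the low values of TGFalpha 2 was not tested.

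**Figure D4:**
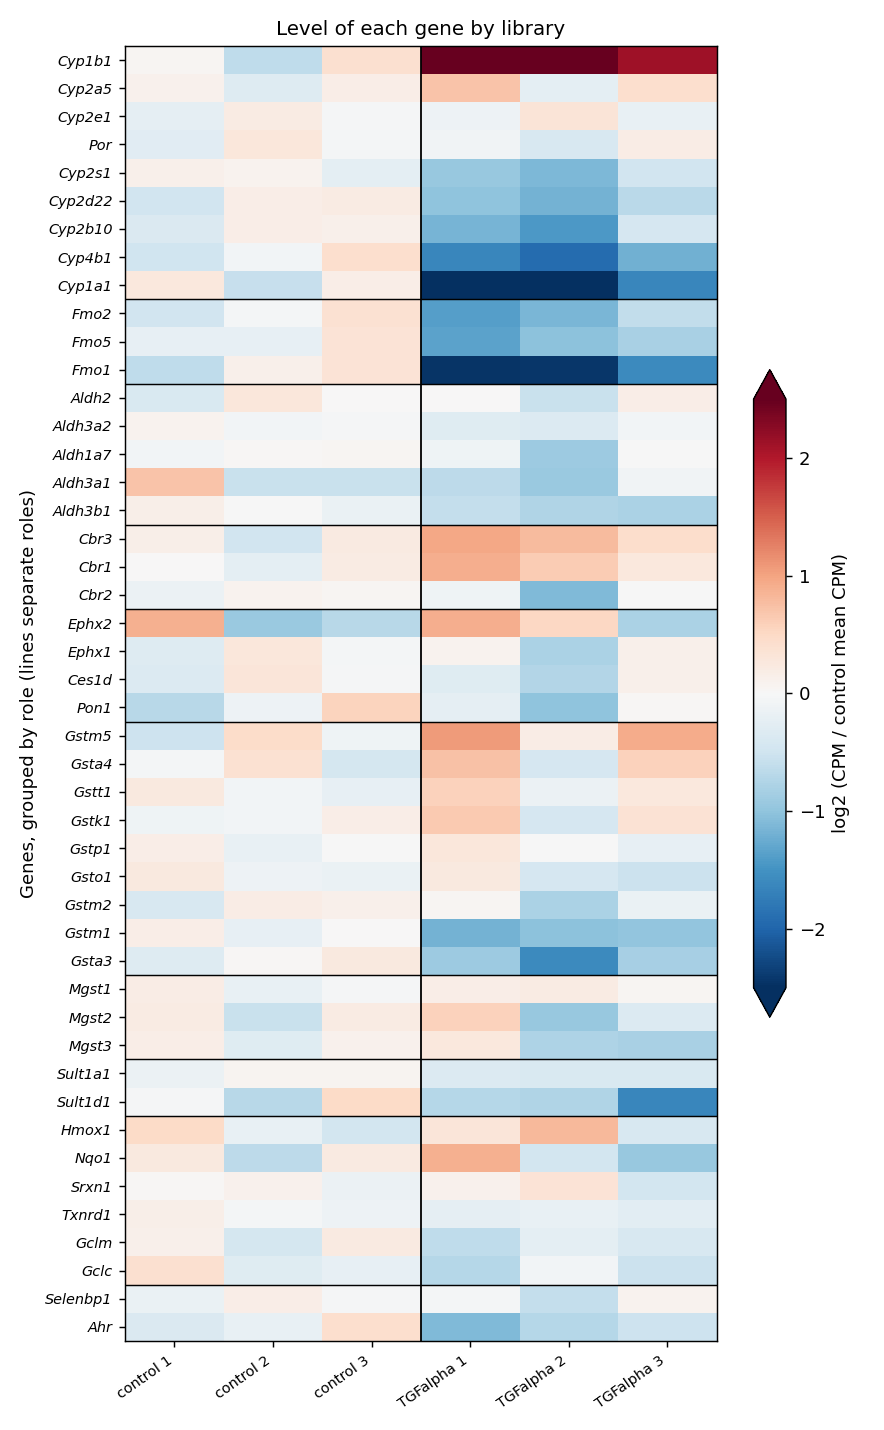
Level of each of the 46 genes in each library as log2 of CPM over the control mean (red higher, blue lower; colours saturate at 2.5 in either direction), grouped by role. Cyp1b1 is high in all 3 TGFalpha libraries, the falling P450 and flavin monooxygenase genes are low in all 3, and Cbr2, Aldh1a7, Ephx1 and Pon1 are low in TGFalpha 2.

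Outside the set, the shares of pathway genes that passed were near the 8.33% of all tested genes or below it, at 5.36% of 56 drug-metabolizing enzymes and 8% of 50 Nrf2 pathway and antioxidant genes. Of the 56 tested drug-metabolizing enzymes, Aldh7a1 (log2 fold change 0.67 ± 0.17) and the aldose reductase gene Akr1b3 (1.01 ± 0.25) rose and Gstm3 fell, with a median of -0.09. Of the 50 tested Nrf2 pathway and antioxidant genes, 4 rose and none fell in edgeR. These were the peroxiredoxin genes Prdx2 and Prdx4 and the glutathione peroxidase genes Gpx7 and Gpx8. Gpx7 went from 4.54, 3.16 and 5.02 CPM to 17, 13.3 and 11.4 CPM (log2 fold change 1.71 ± 0.27, edgeR adjusted p = 0.0102), and Gpx8 and Prdx4 had log2 fold changes of 0.98 ± 0.21 and 0.89 ± 0.18. Prdx4, Gpx7 and Gpx8 encode peroxidases of the endoplasmic reticulum, and Prdx2 a cytosolic one. The median over the 50 genes was 0.14.

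How many of the 46 genes fell rested on single libraries. These fits use fewer libraries, and each also called fewer falls over all tested genes, as given in the last section. A lower count is therefore not particular to the 46 genes. Removing control 1 gave 7 falls, of which 6 were among the 9 and the other was Fmo2. Removing control 2 gave 1 (Gstm1), TGFalpha 1 or TGFalpha 2 gave 2 (Fmo1 and Gstm1 each time), and TGFalpha 3 gave 10, with Cyp2b10 and Fmo2 added and Aldh3b1 lost. On removal of control 3, the library low in mesothelial markers, none fell in edgeR, while 11 were lower at an unadjusted p under 0.05. When control 1 and TGFalpha 1, the libraries with oesophagus and muscle transcripts, were removed together, 4 fell (Cyp4b1, Cyp2d22, Fmo1 and Gstm1). Cyp1b1 was the only gene that rose in each of these fits.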

How the data were processed

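RNA of mouse lung was column-purified and sequenced on Illumina libraries, per the labels' protocols. Raw counts of 24061 gene identifiers in 6 libraries are what the authors deposited, in 1 table. The submitters' processing notes name bcl2fastq, CASAVA 1.8, TopHat, DESeq and mm10. Counting tool, strand setting and annotation: not given in the sources used here, so overlapping and antisense genes cannot be separated. Identifiers were paired with symbols through RefSeq on GRCm38.p6 (23976 named; the other 85, with 1.73 to 3.80% of counts, carry an identifier and were kept in totals and tests). Titles gave the groups.

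The main test was edgeR 4.0.16 (R 4.3.3) with TMM scaling, its expression filter by group and a model of group only, with Benjamini-Hochberg adjustment over 16089 genes and a threshold of 0.05. Standard errors came from the coefficient and the F statistic. On simulated counts with 200 changed genes of 15870, 18.2% of 2-fold and 77.8% of 4-fold changes were recovered, with 11 false calls. Levels per kb divide CPM by the union of exons (GENCODE M21). Shared sequence was counted over 50-base words of each gene's longest coding transcript. Library depth gives low counts a wide error, and intervals are at 95%.

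The 46 genes, the marker and pathway lists and the tests were chosen with earlier results of these data known. The rule for values by library took every called gene and, in each role, those with the smallest p and the highest mean CPM. Values by library of Aldh3a1, Cbr3, Gstm5, Hmox1 and Gpx7 were chosen after being seen. Those of Txnrd1 and Cyp2f2 were also given outside this rule. From each pathway list up to 3 called genes in each direction and 5 regulators were named, and the fourth antioxidant gene that rose was named after its value was seen. Protein sequences were not used here. No 2 libraries of a group were duplicates (chi-square over its degrees of freedom of 48.3 or more). Alternatives were DESeq2 1.42.0, its size factors, library totals, 2 other filters, limma-voom (limma 3.58.1), a replicate block, a robust fit, a threshold of 0.01, each library left out, and control 1 and TGFalpha 1 left out together.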

Additional observations from a re-analysis of the deposited data

How the results depend on the processing

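Cyp1b1 rose and was the only gene of the 46 to rise under all 15 other fits and at an adjusted p of 0.01. The 9 falls became 0 to 10 with 1 library left out, 4 with control 1 and TGFalpha 1 left out together and 2 at an adjusted p of 0.01, and ranged from 9 to 12 under the other tools, scalings and filters. Over all genes, rises numbered 204 to 606 and falls 34 to 482 with 1 library left out, 307 and 166 with both first replicates left out, 227 and 33 at an adjusted p of 0.01, and 1279 and 1224 with DESeq2, against 810 and 530. None of the 10 calls changed direction in these fits. The labels give both groups the same replicate numbers, but same-numbered samples did not all deviate together (correlations of 0.42, -0.05 and 0.22), so the numbers were not taken as pairs. With the replicate block 11 of the 46 genes fell and 1 rose, and 802 and 668 genes changed over all; of the 9 main falls Cyp2s1 was the 1 not called, while Cyp2b10 (adjusted p = 0.0377), Fmo2 (0.0155) and Ahr (0.0354) were called. Cyp1a1, with 9 to 30 counts per TGFalpha library, is limited by depth.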
